A study of Mus musculus with 2 samples.

Results

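The chemokines that draw T cells into tissue, and the receptors that answer them, were followed across the cell types of the mouse optic glioma. The members were 10 genes, listed by symbol with earlier results of these data known, out of 32285 genes in the count tables. They were the ligands Cxcl9, Cxcl10, Cxcl16, Ccl17 and Ccl22 and the receptors Cxcr3, Cxcr6, Ccr4, Ccr8 and Ccr7. Each symbol had 1 row, and all 10 genes had at least 20 UMIs (unique molecular identifiers, which count captured RNA molecules) in each library. The data were single-cell RNA sequencing of optic nerve from Nf1-OPG mice, a model of neurofibromatosis type 1 optic pathway glioma in which 1 Nf1 allele carries a germline mutation and the other is deleted by a GFAP-driven Cre, so that the loss reaches every cell that arises from a Cre-expressing progenitor. There were 2 libraries, C-ON and FMC_new, each made from optic nerves pooled from 10 mice of 12 weeks. Both carry the same genotype label, and the sample title of C-ON adds the word control without saying of what. They were therefore read as replicates 1 and 2 of 1 group (Nf1OPG), with no treated or wild-type samples beside them. No comparison between conditions could be made, and no p-value is given.

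Chemokines are small secreted proteins that bind G protein-coupled receptors on leukocytes and direct their movement along a gradient. Cxcl9 and Cxcl10 are induced by interferons and share the receptor Cxcr3, which activated T cells and NK cells carry. Cxcl16 is made as a membrane protein that can be shed and is the ligand of Cxcr6, a receptor of tissue-resident lymphocytes. Ccl17 and Ccl22 are dendritic cell and macrophage products that both bind Ccr4, Ccr8 is best known on regulatory T cells and type 2 lymphocytes, and Ccr7 leads dendritic cells and naive T cells towards lymph nodes.

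After filtering, 8834 of 10845 barcodes of C-ON and 16818 of 21341 of FMC_new were kept, with a median of 6810.5 and 4676 UMIs per cell. A total of 296 barcodes occurred in both libraries, and between 2 and 45 of the cells with a UMI of a given member carried such a barcode. Clusters were named from marker genes, which gave 24 classes, of which 18 held at least 20 cells in each library and were ranked. P2ry12 was found in 87.0% and 89.8% of microglia of C-ON and FMC_new, Fscn1 in 95.8% and 91.4% of migratory dendritic cells, Cd8a in 86.1% and 86.7% of CD8 T cells, and Foxp3 in 44.9% and 43.1% of regulatory T cells. The libraries differed in make-up. Oligodendrocytes were 5734 cells of C-ON and 2290 of FMC_new, whereas endocrine cells of the pituitary were 19 and 1183 cells, and 15 clusters (14.9% of cells) were left unnamed, nearly all of them because they mixed markers of different classes or matched 2 lists nearly as well. Each member is given as CPM, the UMIs of the gene per 1000000 UMIs of the class, and as the share of cells with at least 1 UMI. Intervals are exact Poisson (CPM) or exact binomial (Clopper-Pearson, shares) at 95% and cover counting error only. The spread between the libraries is given as mean ± SD (n = 2), and a class is said to stand apart from the next where its lower library lies above the higher library of the next class.

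**Figure D1:**
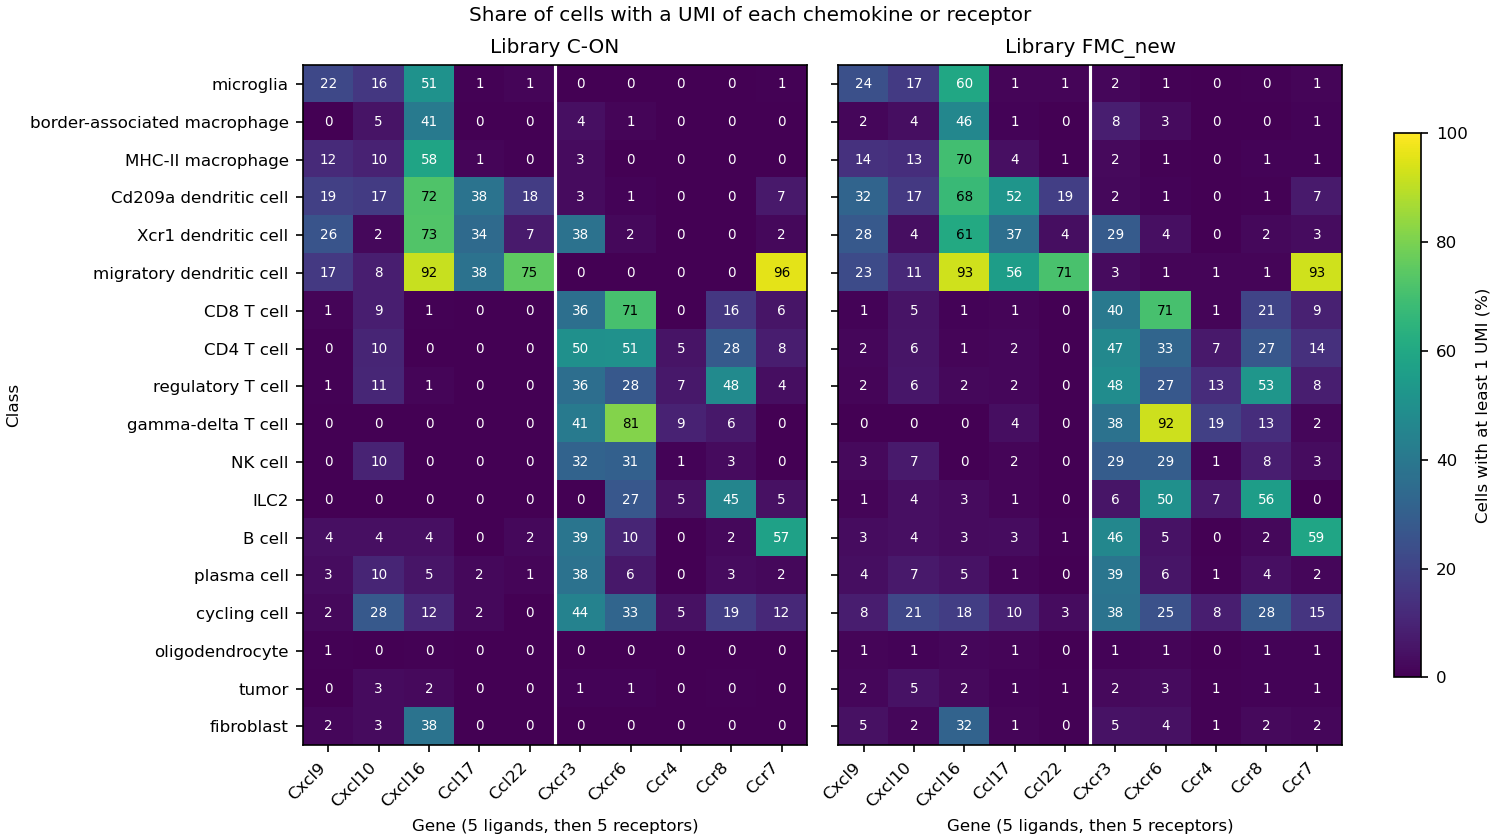
Share of cells with at least 1 UMI (%) of each of the 10 genes (columns) in each of the 18 ranked classes (rows), with 1 panel per library and the share as colour. The ligands Cxcl16, Ccl17 and Ccl22 were found mostly in the myeloid rows and Cxcr6 and Ccr8 mostly in the lymphoid rows, while Ccr7 was highest in migratory dendritic cells (95.8% and 92.9%).

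The sequences before the start sites of the 4 ligands that lie in pairs are shown because members of a pair are neighbours in the genome and were compared cell by cell. On GRCm38, Cxcl9 lies on the minus strand at chr5:92321347-92328079 and Cxcl10 at chr5:92346638-92348889, with 18558 bases between the genes. Ccl22 (chr8:94745590-94751699) and Ccl17 (chr8:94810453-94812036) lie on the plus strand with 58753 bases between them. The letters run 5′ to 3′ on the gene's strand, come from the RefSeq promoter table (GRCm38.p6) and hold the 250 bases before the start (156 for Ccl22, which stops before the first annotated base of the gene). Capitals mark a match on either strand to the core of the interferon-stimulated response element (GAAA, any 2 bases, GAAA), the interferon gamma-activated site (TTCNNNGAA), a STAT6 site (TTC, any 4 bases, GAA) or the kappa B site.
Cxcl9, chr5:92328080-92328329, minus strand: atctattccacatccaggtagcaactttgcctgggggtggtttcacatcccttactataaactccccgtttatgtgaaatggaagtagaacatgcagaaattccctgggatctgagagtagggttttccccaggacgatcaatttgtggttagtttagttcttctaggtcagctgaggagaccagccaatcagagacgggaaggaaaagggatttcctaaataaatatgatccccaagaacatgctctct
Cxcl10, chr5:92348890-92349139, minus strand: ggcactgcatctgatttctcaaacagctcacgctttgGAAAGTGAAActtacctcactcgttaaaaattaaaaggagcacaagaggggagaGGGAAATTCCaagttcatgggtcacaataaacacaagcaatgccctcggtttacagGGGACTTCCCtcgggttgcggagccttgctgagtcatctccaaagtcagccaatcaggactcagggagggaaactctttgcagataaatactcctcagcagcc
Ccl22, chr8:94745434-94745589, plus strand: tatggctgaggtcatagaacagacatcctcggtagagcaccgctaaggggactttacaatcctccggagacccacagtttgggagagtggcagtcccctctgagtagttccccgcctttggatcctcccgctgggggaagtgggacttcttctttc
Ccl17, chr8:94810203-94810452, plus strand: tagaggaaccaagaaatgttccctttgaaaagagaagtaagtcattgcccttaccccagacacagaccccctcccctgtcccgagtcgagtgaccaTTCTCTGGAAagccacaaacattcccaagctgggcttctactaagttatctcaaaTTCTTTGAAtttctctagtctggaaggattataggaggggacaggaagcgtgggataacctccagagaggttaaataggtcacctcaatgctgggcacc
The Cxcl10 window held a match to the interferon-stimulated response element, whose 5′ base lies 213 bases before the start, and kappa B matches at 159 and 103 bases. The Ccl17 window held a match to the STAT6 site at 154 bases and to the interferon gamma-activated site at 99 bases. No matches overlapped, and the Cxcl9 and Ccl22 windows held none of the 4 motifs. Among 32851 promoters of 250 bases, 2.98% held the interferon-stimulated response element, 7.02% the interferon gamma-activated site, 5.85% the STAT6 site and 3.90% the kappa B site. A match describes letters and does not show a site in use. Only exact matches to the motif letters were counted, so a window without a match may still hold a site.

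Cxcl9 was highest in microglia, the resident macrophages of the central nervous system. Its level there was 935 CPM (877–997) in C-ON and 536 CPM (518–555) in FMC_new, a mean of 736 ± 282 CPM (SD, n = 2), and the share of cells was 21.7% and 24.3%. Migratory dendritic cells, which have matured and are on their way to lymph nodes, had 529 and 164 CPM, Cd209a dendritic cells 270 and 337 CPM, and MHC-II macrophages 241 and 336 CPM. Microglia stood apart from migratory dendritic cells only by the small gap between 536 and 529 CPM, and the classes in the next places did not differ beyond their spread. In C-ON, 98.9% of the 91 Cxcl9 UMIs of the 24 migratory dendritic cells came from 3 cells. Oligodendrocytes, which should lack the gene and were deeper than microglia (median 7756 and 7449 UMIs against 5300 and 6353.5), had a Cxcl9 UMI in 0.523% (0.353–0.746) and 1.18% (0.778–1.71) of cells.

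Within the microglia class, Cxcl9 was concentrated in 1 of the 3 clusters. The members were left out of the genes used for clustering, but genes that vary with them were not, and Cxcl9 itself was among the 10 leading genes of that cluster, so these shares are a description. The cluster led by Cxcl13 (68 and 576 cells) had Cxcl9 in 48.5% (36.2–61.0) of C-ON cells and 34.2% (30.3–38.2) of FMC_new cells, at 1541.5 and 694 CPM. The cluster led by P2ry12 (65 and 212 cells) had it in 0 of 65 C-ON cells (interval up to 5.52%, and 4.62% by the limit of 3 counts, for cells with a UMI at this depth) and in 1.4% (0.3–4.1), at 12.1 CPM in FMC_new. The Cxcl13-led cells still carried the microglial genes P2ry12 (88.7% of both libraries together) and Tmem119 (85.1%), and they were deeper than the P2ry12-led cells (8410.5 and 7376 UMIs against 4366 and 5057). The other cluster, led by Lrmda (28 and 106 cells), lay between them with 7.1% and 16.0%. MHC-II macrophages were split in the same way, with 13.8% and 19.2% in the larger cluster and 2.4% and 3.2% in the smaller. An unnamed cluster of 31 FMC_new cells had Cxcl9 in 61.3% (42.2–78.2) of cells. This cluster mixed 6 markers of tumor cells with 5 of Xcr1 dendritic cells, and Cxcl9 was among its 10 leading genes.

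Cxcl10, the second Cxcr3 ligand, was spread over more classes. Microglia had 272 CPM in C-ON and 396 CPM in FMC_new (334 ± 87.5, n = 2), with 16.1% and 17.0% of cells, and Cd209a dendritic cells, which resemble the type 2 conventional dendritic cell, had 252 and 230 CPM, with 17.2% and 16.5%. NK cells had 285 and 102 CPM. Microglia stood apart from Cd209a dendritic cells over both libraries, but in C-ON alone NK cells were first. There, 68.9% of the 90 Cxcl10 UMIs of NK cells came from 3 cells. In C-ON microglia 3 cells gave 56.9% of 276 UMIs, and in C-ON Cd209a dendritic cells 51.4% of 311. The order of these classes in C-ON therefore rests on few cells. CD8 T cells also differed between libraries, with 166 CPM in C-ON and 38.8 CPM in FMC_new. Plasma cells, chosen as the background class for this gene, had Cxcl10 in 10.5% (7.72–13.8) and 6.98% (5.54–8.66) of cells at a median of 10575 and 11725 UMIs. When every cell was thinned to 1000 UMIs, the share was 10.1% in microglia and 3.0% in plasma cells over both libraries. Single plasma cells held up to 42 Cxcl10 UMIs, so their share is not that of cells without the RNA. Oligodendrocytes had Cxcl10 in 0.279% (0.160–0.453) and 0.873% (0.534–1.35) of cells, below the 5.45% to 10.9% of the CD4, CD8, regulatory T and NK cell classes.

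Cxcl10 was found most often in the cells with interferon-stimulated genes. A CD8 T cell cluster led by Ifit1 (32 and 77 cells), in which 91.7% of cells had Isg15 and 76.1% Ifit1, had Cxcl10, itself 1 of its 10 leading genes, in 53.1% of C-ON cells and 31.2% of FMC_new cells, at 2511 and 411 CPM. In the CD8 T cell cluster led by Gzmk the shares were 4.9% and 2.6%. Across all CD8 T cells, Cxcl10 was in 24.3% (16.5–33.5) of C-ON cells with Isg15, an interferon-induced ubiquitin-like protein, and in 3.0% (1.4–5.5) of those without. In FMC_new the shares were 11.9% (8.6–15.8) and 3.3% (2.3–4.6). Microglia showed the same order, with 34.6% against 7.3% in C-ON and 22.9% against 13% in FMC_new. At 1000 UMIs per cell the difference was still present, with 13.8% against 1.5% in CD8 T cells and 23.6% against 7.6% in microglia of both libraries.

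Cells with Cxcl9 more often held Cxcl10 as well. In Cd209a dendritic cells, Cxcl10 was in 33.3% (18.0–51.8) of cells with Cxcl9 and 13.5% (8.3–20.2) of cells without it in C-ON, and in 32.6% (26.7–39.0) and 8.8% (6.5–11.6) in FMC_new. In microglia the shares were 22.9% against 14.3% in C-ON, where the intervals overlapped, and 26.7% against 13.9% in FMC_new. These microglia shares are at full depth, and the Cxcl13-led microglia, in which Cxcl9 was concentrated, were deeper than the P2ry12-led ones. Xcr1 dendritic cells, the cross-presenting type, had Cxcl9 in 26.0% and 27.9% of cells but hardly any Cxcl10, even beside Cxcl9 (4.0% and 8.8%). Thinned to 1000 UMIs, the share of Cxcl10 was 33.0% in Cd209a dendritic cells with Cxcl9 and 5.6% in those without.

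Cxcl16 was widespread over the myeloid classes. Migratory dendritic cells led with 860 CPM in C-ON and 802 CPM in FMC_new (831 ± 40.9, n = 2), found in 91.7% and 92.9% of cells, and stood apart from MHC-II macrophages, which had 312 and 419 CPM (58.4% and 69.9%). Cd209a dendritic cells (256 and 262 CPM), microglia (241 and 271 CPM) and Xcr1 dendritic cells (251 and 216 CPM) followed. Microglia overlapped with both dendritic classes, while the lower Cd209a library lay just above the higher Xcr1 library. Border-associated macrophages, which line vessels and meninges, had 143 and 134 CPM. Fibroblasts were the highest class outside the leukocytes, with 75.6 and 102 CPM and 38.1% and 32.0% of cells. The plasma cell background was 5.48% and 4.96%. In the microglia clusters, Cxcl16 was in 79.4% and 71.9% of the Cxcl13-led cells, 25.0% and 39.6% of the Lrmda-led cells and 32.3% and 36.3% of the P2ry12-led cells. Like Cxcl9, it was highest in the Cxcl13-led cells, but its share was at least 25.0% in every cluster and library.

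Ccl17 came from the dendritic classes. Migratory dendritic cells had 889 CPM in C-ON and 653 CPM in FMC_new (771 ± 167, n = 2) and Cd209a dendritic cells 448 and 689 CPM (569 ± 171, n = 2), and these classes did not differ beyond their spread. In FMC_new alone Cd209a dendritic cells were first. In C-ON, 90.2% of the Ccl17 UMIs of migratory dendritic cells came from 3 of 24 cells. The shares of cells were 37.5% and 55.7% in migratory, 37.9% and 52.1% in Cd209a and 34.4% and 36.5% in Xcr1 dendritic cells, the last at 261 and 303 CPM. The next class by mean was the cycling cells, with 2.07 CPM (1 UMI) in C-ON and 51.7 CPM in FMC_new, below Xcr1 dendritic cells in both libraries. Together the dendritic classes held 81.2% of all Ccl17 UMIs in 6.1% of the cells. Outside them, a Gh-led cluster of the pituitary endocrine class (355 cells of FMC_new) had Ccl17 in 18.9% (14.9–23.3) of cells at 28.7 CPM and a median of 11911 UMIs, while the dendritic genes Cd209a and Xcr1 were in 1.7% and 0.3% of these cells. The oligodendrocyte background of Ccl17 was 0.122% in C-ON and 1.49% in FMC_new.

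Ccl22, the other Ccr4 ligand, was narrower. Migratory dendritic cells had 1180 CPM (1023–1354) in C-ON and 1030.4 CPM (939–1128) in FMC_new, 1105 ± 106 (n = 2), with 75.0% and 71.4% of cells. This was 14.3-fold the mean of Cd209a dendritic cells, which had 83.5 and 70.8 CPM and 17.8% and 18.5% of cells and stood apart from all lower classes. B cells came next with 11.0 and 46 CPM, but 49 of their UMIs in FMC_new came from 1 cell, and Xcr1 dendritic cells had 23.9 and 11.9 CPM. In C-ON, 60.1% of the 203 Ccl22 UMIs of migratory dendritic cells came from 3 of 24 cells. Oligodendrocytes had Ccl22 in 0.331% and 0.306% of cells. Xcr1 dendritic cells, in which Ccl17 was common, held Ccl22 in 7.29% and 3.68% of cells.

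Ccl22 was found in a larger share of the cells with Ccl17 than of those without it, although most Cd209a dendritic cells with Ccl17 held no Ccl22 UMI. In C-ON migratory dendritic cells, Ccl22 was in 9 of 9 cells with Ccl17 and in 9 of the 15 without (32.3–83.7%), and in FMC_new in 82.1% (66.5–92.5) of 39 and 58.1% (39.1–75.5) of 31. The intervals overlapped in both libraries. In Cd209a dendritic cells, Ccl22 was in 28.8% (18.3–41.3) of cells with Ccl17 and 11.1% (5.9–18.6) of those without in C-ON, and in 26.0% (21.7–30.7) and 10.5% (7.5–14.1) in FMC_new. Thinned to 1000 UMIs, these shares were 8.8% and 5.0% over both libraries. Ccr7 was in 25.8% of C-ON and 13.1% of FMC_new Cd209a dendritic cells with Ccl22, against 2.8% and 5.6% of those without.

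**Figure D2:**
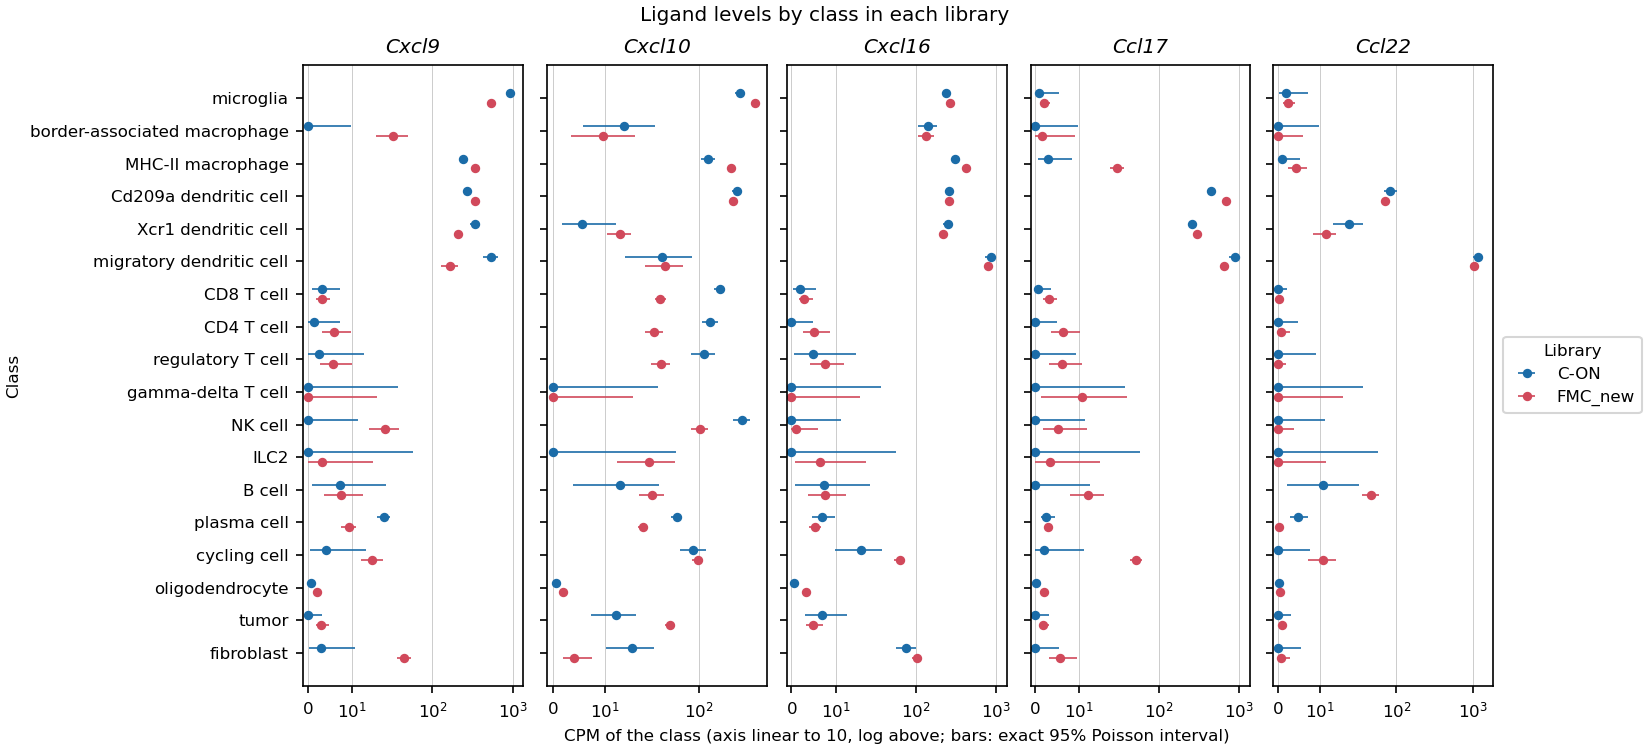
CPM of the 5 ligands (panels) in each of the 18 ranked classes (rows), 1 dot per library with exact 95% Poisson intervals as bars, on an axis that is linear to 10 and logarithmic above. Ccl22 drops 14.3-fold from migratory to Cd209a dendritic cells, Ccl17 drops after 3 dendritic classes, and Cxcl9, Cxcl10 and Cxcl16 extend to microglia and MHC-II macrophages.

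Cxcr3, the receptor of Cxcl9 and Cxcl10, was found in most lymphoid classes. CD4 T cells had 249 CPM in C-ON and 300 CPM in FMC_new (274 ± 35.6, n = 2), in 50.2% and 46.5% of cells, regulatory T cells 176 and 282 CPM, gamma-delta T cells 271 and 180 CPM and B cells 128 and 234 CPM. CD4 T cells overlapped with regulatory and gamma-delta T cells and stood apart from B cells, and in C-ON alone gamma-delta T cells were first. CD8 T cells had 156 and 178 CPM (36.5% and 40.5% of cells) and NK cells 123 and 127 CPM. Plasma cells had only 65.2 and 95.8 CPM, but with 37.6% and 38.9% of cells they gave 25.1% and 21.0% of all Cxcr3 UMIs from 4.8% and 6.5% of the cells. Among myeloid classes, Xcr1 dendritic cells had 67.0 and 59.2 CPM. Those UMIs lay in the larger of their 2 clusters, with 43.4% and 37.1% of cells against 0.0% and 5.5% in the smaller, shallower one (median 10199 and 10559 against 2533 and 2052 UMIs). The T cell gene Cd3e was in 8.4% of the larger cluster, and its part in the result was not tested. In FMC_new, 16 of 48 plasmacytoid dendritic cells (33.3%) had Cxcr3; this class was not ranked because C-ON held 3 such cells. The oligodendrocyte background was 0.140% and 0.786%.

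Cxcr6, the receptor of Cxcl16, was highest in gamma-delta T cells, with 852 CPM in C-ON and 1150.2 CPM in FMC_new (1001 ± 211, n = 2) and 81.2% and 92.5% of 32 and 53 cells. They stood apart from CD8 T cells, with 533 and 573 CPM and 71.0% and 71.1% of cells, which in turn stood apart from the rest. ILC2 (group 2 innate lymphoid cells) had 373 and 321 CPM, CD4 T cells 407 and 247 CPM, regulatory T cells 241 and 246 CPM and NK cells 218 and 208 CPM. ILC2 and CD4 T cells did not differ beyond their spread. The T, NK and ILC2 classes together held 68.8% of all Cxcr6 UMIs in 16.3% of the cells, while oligodendrocytes had Cxcr6 in 0.331% and 1.27% of cells.

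Ccr8 was highest in ILC2, with 730 CPM in C-ON and 612 CPM in FMC_new (671 ± 83.5, n = 2) and 45.5% and 55.6% of 22 and 72 cells. Regulatory T cells followed with 554 and 438 CPM and 47.8% and 52.7% of cells, CD4 T cells with 198 and 208 CPM and CD8 T cells with 86.6 and 107 CPM. The first 3 classes each stood apart from the next. In C-ON, however, 59.6% of the 47 Ccr8 UMIs of ILC2 came from 3 of 22 cells. Among regulatory T cells, Ccr8 was in 50.0% of C-ON and 57.0% of FMC_new cells with a Foxp3 UMI and 46.1% and 49.5% of those without, with overlapping intervals. Cxcr3 was in 47.0% and 49.1% of regulatory T cells with Ccr8 and 26.4% and 47.8% of those without. The oligodendrocyte background of Ccr8 was 0.209% and 0.786%.

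Ccr4, the receptor of Ccl17 and Ccl22, was sparse, with 417 UMIs in 313 cells. Gamma-delta T cells had 50.1 CPM in C-ON and 81.8 CPM in FMC_new (65.9 ± 22.4, n = 2), which rest on 5 and 15 UMIs, and regulatory T cells had 27.3 and 60.6 CPM. The first 3 classes, with CD4 T cells at 23.7 and 31.3 CPM, did not each stand apart from the next. The share of cells was 9.4% and 18.9% in gamma-delta T cells and 6.5% and 12.7% in regulatory T cells, against 0.070% and 0.131% in oligodendrocytes. Ccr4 was in 6.1% (1.7–14.8) of C-ON regulatory T cells with Ccr8 and 6.9% (2.3–15.5) of those without, and in 16.0% (12.3–20.3) and 8.9% (6.0–12.6) in FMC_new. Thinned to 1000 UMIs, the shares were 5.8% and 5.0%, and a difference was not detectable at that depth.

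Ccr7 was highest in migratory dendritic cells, whose level was 5098 CPM in C-ON and 4816 CPM in FMC_new (4957 ± 199, n = 2), with 95.8% and 92.9% of cells, 15.6-fold the mean of B cells. B cells had 286 and 349 CPM and 57.1% and 58.8% of cells and stood apart from CD4 T cells, with 60.7 and 98.8 CPM. CD8 T cells had 53.7 and 75.3 CPM, regulatory T cells 37.3 and 86.1 CPM and Cd209a dendritic cells 26.7 and 28.2 CPM. Because migratory dendritic cells were few, 24 and 70, the dendritic classes held 56.6% of Ccr7 UMIs, the T, NK and ILC2 classes 17.0% and the B and plasma cell classes 11.4%. The oligodendrocyte background was 0.087% and 0.873%.

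**Figure D3:**
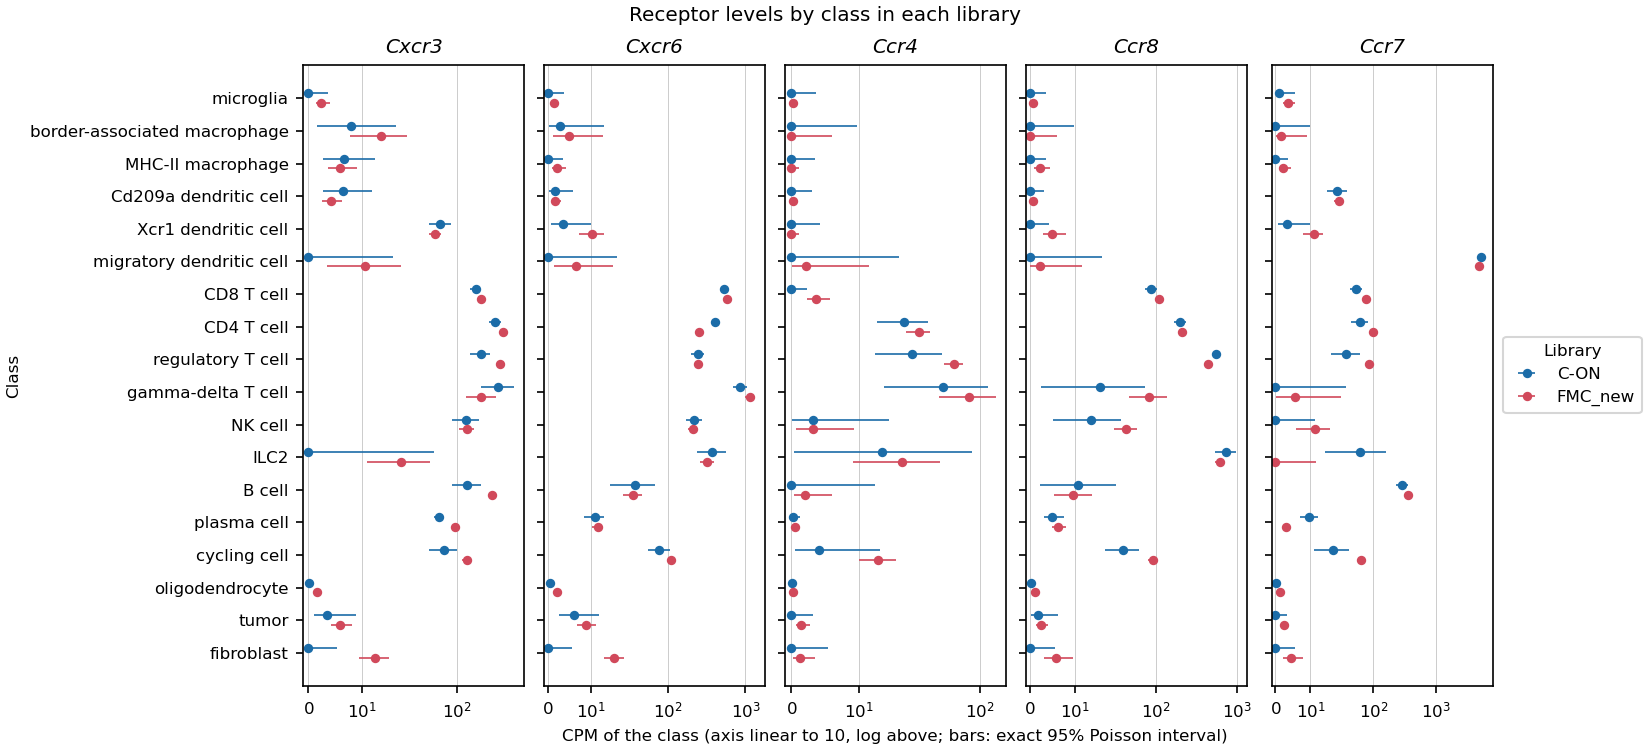
CPM of the 5 receptors (panels) in each of the 18 ranked classes (rows), 1 dot per library with exact 95% Poisson intervals as bars, on an axis that is linear to 10 and logarithmic above. Cxcr3 overlaps between CD4, regulatory and gamma-delta T cells, Cxcr6 and Ccr8 lead in gamma-delta T cells and ILC2, and Ccr7 in migratory dendritic cells at 5098 and 4816 CPM.

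The receptors differed between the clusters of CD8 T cells. They were left out of the genes used for clustering, but genes that vary with them were not, so these shares are a description. The class held 4 clusters, of which the cluster led by Gm156 carried Pdcd1, the gene of the inhibitory receptor PD-1, in 93.7% of cells. Cxcr3 was in 54.2% and 61.1% of the cluster led by Gzmk, a granzyme gene, and in 14.4% and 20.5% of the Gm156-led cluster. Cxcr6 ran the other way, with 62.6% and 61.5% in the Gzmk-led and 92.0% and 87.5% in the Gm156-led cluster. Ccr8 was in 2.5% and 3.7% of the Gzmk-led cells, 24.0% and 27.2% of the Gm156-led cells and 54.9% and 50.6% of a cluster led by Xcl1, a chemokine gene. The Xcl1-led cells also had the most Ccr7, with 25.5% and 21.2% against 1.6% and 4.1% in the Gm156-led cluster.

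Split by Pdcd1 alone, the same receptors differed among CD8 T cells. Cxcr6 was in 79.0% (73.1–84.2) of C-ON cells with a Pdcd1 UMI and 61.5% (54.1–68.5) of those without, and in 79.1% (76.2–81.9) and 58.5% (54.2–62.7) in FMC_new. Cxcr3 was lower beside Pdcd1, with 28.1% (22.3–34.5) against 46.5% (39.2–53.9) in C-ON and 32.1% (28.9–35.4) against 53.6% (49.2–57.9) in FMC_new. Ccr8 was in 27.2% against 2.7% in C-ON and 30.9% against 4.5% in FMC_new. The direction was the same in both libraries for all 3 genes, and at 1000 UMIs per cell the shares were 49.5% against 33.6% for Cxcr6, 9.9% against 20.4% for Cxcr3 and 12.2% against 4.9% for Ccr8. Cxcr3 itself was found about as often in CD8 T cells with Cxcr6 (35.6% and 39.5%) as in those without (38.7% and 42.7%), and the intervals overlapped.

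CD4 T cells fell into 2 clusters that differed in the receptors, with the same limit on the clustering as for CD8 T cells. The cluster led by Cd40lg, the CD40 ligand gene, had Cxcr6 in 62.4% of C-ON and 41.5% of FMC_new cells and Ccr8 in 33 of 165 and in 13.1%. The cluster led by Tnfsf8, the CD30 ligand gene, had Cxcr6 in 18.3% and 12.8%, Ccr8 in 51.7% and 58.9% and Ccr7 in 21.7% and 26.0%, the last against 3.0% and 8.4% in the Cd40lg-led cluster. Cell by cell, Ccr7 was in 4.4% (1.4–9.9) of C-ON CD4 T cells with Cxcr6 and 11.7% (6.4–19.2) of those without, and in 4.4% (2.3–7.6) and 18.4% (15.2–21.8) in FMC_new. Thinned to 1000 UMIs, the shares were 1.0% and 8.0%.

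**Figure D4:**
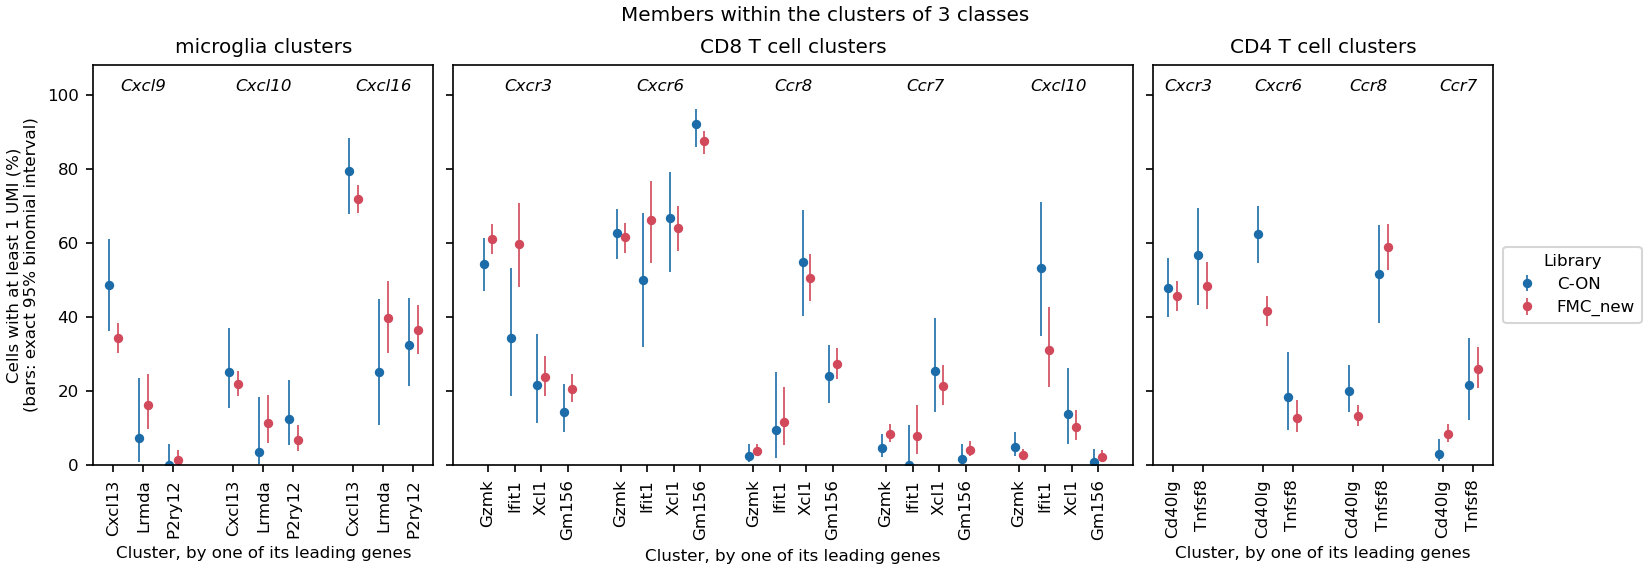
Share of cells with at least 1 UMI (%) of members in the clusters of microglia, CD8 T cells and CD4 T cells, 1 dot per library with exact 95% binomial intervals as bars; each cluster is named by one of its leading genes. Cxcl9 is at 48.5% and 34.2% in Cxcl13-led microglia and near 0 in P2ry12-led microglia, and Cxcr6 and Cxcr3 run in opposite directions between the Gzmk-led and Gm156-led CD8 T cells.

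By sum of UMIs, the sources of a ligand depended on how many cells a class had as well as on its level. Microglia and the macrophage classes gave 50.0% of Cxcl9 UMIs and the dendritic classes 29.4%, and for Cxcl16 the shares were 41.3% and 34.6%. Cxcl10 differed between the libraries. In C-ON the T, NK and ILC2 classes gave 29.5% of its UMIs and microglia and macrophages 24.6%, whereas in FMC_new they gave 7.1% and 47.5%. The C-ON shares rest on few cells. There, 3 cells gave 62.0% of the 100 Cxcl10 UMIs of CD4 T cells and 40.8% of the 262 of CD8 T cells. For NK cells 3 cells gave 68.9% of 90 UMIs, and for microglia 56.9% of 276. The dendritic classes gave 74.2% of Ccl22. Of the receptors, the T, NK and ILC2 classes gave 45.8% of Cxcr3, 67.1% of Ccr4 and 71.7% of Ccr8, and the B and plasma cell classes gave 27.4% of Cxcr3. Unnamed clusters held between 8.3% and 20.4% of the UMIs of each member.

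**Figure D5:**
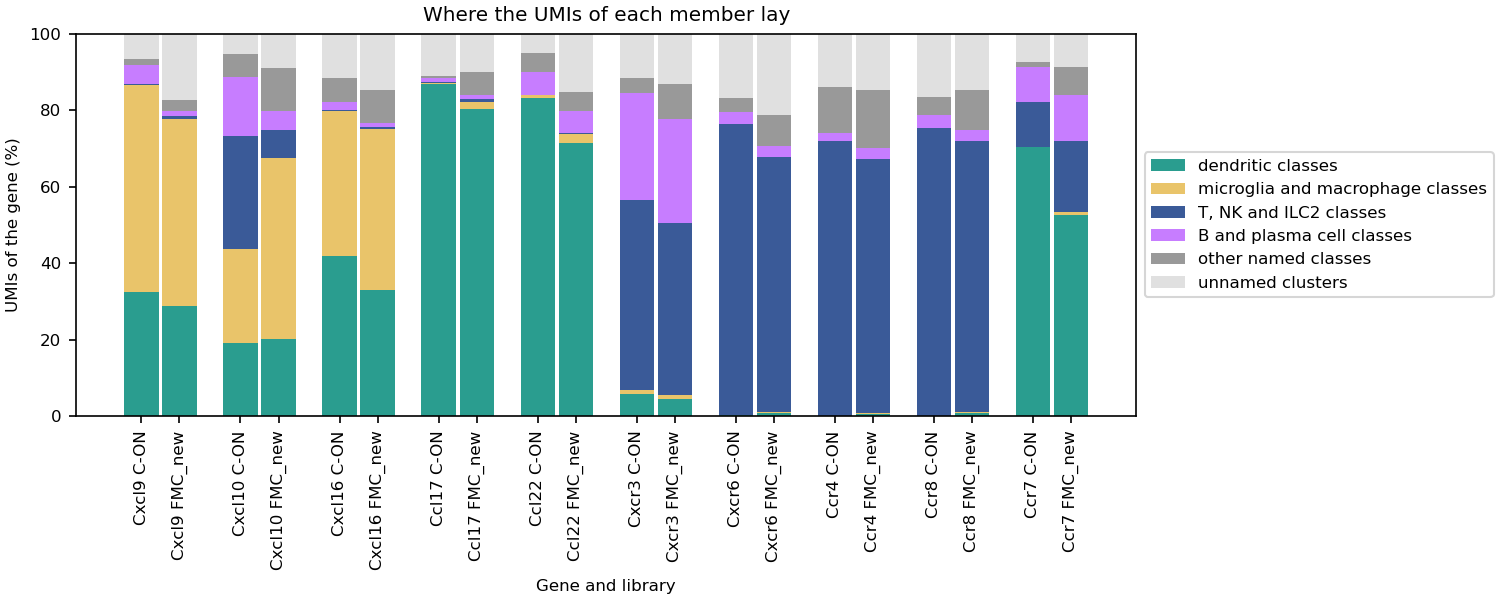
Share of all UMIs of each gene (%) that came from each group of classes, as stacked bars with 1 bar per gene and library. The dendritic classes give 81.2% of Ccl17 and 74.2% of Ccl22 over both libraries, and for Cxcl10 the T, NK and ILC2 part is 29.5% in C-ON and 7.1% in FMC_new.

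Read against all genes, the share of members that marked 1 class sharply was near the background at a limit of 2 times. Of 16573 genes with at least 20 UMIs in each library, 2955 (17.8%) had a class at least 2 times above the next in both libraries, and 2 of the 10 members did (Ccl22 and Ccr7, both in migratory dendritic cells). Both were among the 10 leading genes of that cluster, which was formed with genes that vary with them, so this is a description. The other genes of these pathways were taken from a list of 19, of which 18 were measured here. Of the 14 with enough UMIs, 3 met the same limit: Ccl8, a Ccr8 ligand in mice, in MHC-II macrophages (452.5 and 296 CPM), and the cytokine genes Il4 (31.1 and 81.8 CPM) and Csf2 (295 and 160 CPM) in ILC2. For Il4 this rests on few counts, with 24 UMIs in all of C-ON. There its ILC2 level was below that of 3 counts in the class (46.6 CPM), and regulatory T cells came next at 7.45 CPM. Ccl1, the other Ccr8 ligand, was at 295 and 85.1 CPM in ILC2 and 46.1 and 119 CPM in CD8 T cells. In FMC_new its highest class was the cycling cells, at 129 CPM. The Ccr7 ligands were scarce: Ccl19 had 14 and 12 UMIs in fibroblasts, and Ccl21a and Ccl21b had no UMI.

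Other genes of the list act on the members. Ifng, which induces Cxcl9 and Cxcl10, was highest in CD4 T cells (407.5 and 168 CPM), with CD8 T cells at 147 and 157 CPM. Regulatory T cells came second in C-ON at 201 CPM, above the 168 CPM of CD4 T cells in FMC_new. CD4 T cells therefore did not stand apart from them. The receptor chain Ifngr1 was highest in gamma-delta T cells (1453 and 1450 CPM) and Ifngr2 in microglia (165 and 181.5 CPM). Irf1, an interferon-induced transcription factor, was at 448 and 593 CPM in microglia and 488 and 353 CPM in migratory dendritic cells. Of the proteases that shed Cxcl16, Adam10 was at 150 and 168 CPM in microglia and 123 and 134 CPM in oligodendrocytes, and Adam17 at 142 and 116 CPM in MHC-II macrophages. Dpp4, which trims and inactivates Cxcl10, was highest in Xcr1 dendritic cells (154.5 and 188 CPM). Il13, a type 2 cytokine, had no UMI in the 22 ILC2 of C-ON and was at 560 CPM in the 72 of FMC_new, while in C-ON its highest class was the regulatory T cell (161.5 CPM), where 65 UMIs came from 1 cell. The scavenger receptors Ackr2 and Ackr4 had 3 and 9 and 54 and 146 UMIs in all.

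The genes whose levels ran most like those of a member were found by Pearson correlation of log2(CPM + 1) over 36 sums (18 classes in 2 libraries) among 16573 genes. These sums share libraries and depth, and the values are a description. Cxcr6 had the closest companions, Thy1 (r = 0.97), Sh2d2a (0.97) and Gimap3 (0.97). Cxcl16 ran with Cst3 (0.95), F11r (0.94) and Tbc1d8 (0.93), and F11r was also first for Cxcl9 (0.89), before Ly6i (0.88) and Tspan33 (0.87). Ccr8 ran with Zap70 (0.94) and Gata3 (0.93), Cxcr3 with Rab19 (0.91), Itgal (0.89) and Dkkl1 (0.87), and Ccr4 with Tnfrsf25 (0.91), Podnl1 (0.90) and Icos (0.88). Ccl17 ran with Htr7 (0.92), Zfp366 (0.90) and Clec9a (0.89) and Ccl22 with Gm2396 (0.92), Gm37267 (0.90) and Syngr2 (0.90). The lowest values were those of Ccr7, with Ly75 (0.82), 4933406J09Rik (0.82) and Cd274 (0.79), and of Cxcl10, with Traf5 (0.78), St6galnac4 (0.73) and Cep152 (0.71). No member was among the 3 closest genes of another.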

How the data were processed

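Live single cells of optic nerve were sequenced with the 10x Genomics kit for the 5′ end of transcripts. The authors deposited raw UMI counts per gene and cell. Per the labels and file headers these were made with Cell Ranger 7.2.0 on mm10, while the methods of the study name version 6.1.1. The members, the gene lists and the markers were chosen with earlier results of these data known.

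Cells were kept with 500 to 5000 genes, 500 to 20000 UMIs and at most 5% mitochondrial UMIs. Counts were log-normalized (scale 10000), and 2000 variable features without the 10 members, 30 components and CCA integration were used in Seurat 5.3.0 (R 4.3.3). Louvain clusters (resolution 0.8, then 0.6 within 4908 lymphoid and 5396 myeloid cells) were named from 33 marker lists: a marker counted at 20% of cells and 2 times the share elsewhere, and at least 3 were needed. How mixed or tied clusters were handled was settled after the clusters had been seen. Of 55 clusters, 40 were named. Doublets were kept, since Scrublet (scanpy 1.11.5) marked 1 of 8834 and 0 of 16818 cells and had therefore not worked. Cells are not replicates, so UMIs were summed per class and library. Intervals and the limit for a count of 0 (3 counts) cover counting error only. Thinning to 1000 UMIs left out 102 and 510 cells. Named genes were the members, the 19 pathway genes, the 3 genes most like each member and class markers; 2 of these genes are not reported here. The computations were tested on simulated data. Gene positions came from GENCODE vM21, and 8 of 10 promoters were matched (not Cxcl16 and Ccr7). Nothing says whether the 2 pools came from separate litters.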

Additional observations from a re-analysis of the deposited data

How the results depend on the processing

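Of 53 alternative values for the levels in the leading classes, 41 stayed within the SD of the 2 libraries and 52 kept the same leading class. For Cxcl10 in microglia the mean was 238 CPM with no cell filter and 185 CPM with cells gated on single markers, where MHC-II macrophages led instead. Gating gave 216 CPM for Cxcr3 in CD4 T cells. Thinning to 1000 UMIs gave 758 CPM for Cxcl16, 315 for Cxcr3, 559 for Ccl17 and 5175 for Ccr7. A clustering resolution of 1.6 gave 1026 CPM for Ccl17, 510 for Ccr8 and 4483 for Ccr7. A mean over cells gave 566 CPM for Ccl17, 934 for Ccl22 and, for Cxcl9, 480. The number of genes with a sharp leading class fell to 1503 (9.07%) at a limit of 4 times. The causes were not tested. With C-ON alone, the leading class was the NK cell for Cxcl10 and the gamma-delta T cell for Cxcr3, and with FMC_new alone the Cd209a dendritic cell for Ccl17. The remaining 17 alternatives gave no value because the class was not found with at least 20 cells per library. Leaving out the 781 and 1354 cells with the highest doublet scores, or the rules for mixed clusters, both added after seeing the data, kept every member within its SD. No paired analysis was possible because both libraries belong to 1 group.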
